A study of Mus musculus with 4 samples.

Results

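The genes described here encode the nuclear subunits of respiratory complexes III and IV, cytochrome c and the mitochondrial ATP synthase, measured in hearts of GSK-3α knock-in and wild-type mice. Members were taken by gene symbol: every probe set of the array whose single annotated symbol starts with Uqcr, Atp5, Cox4, Cox5, Cox6, Cox7 or Cox8, or is Cyc1 or Cycs. This gave 87 probe sets for 44 of the 18193 genes measured: 10 genes of complex III and cytochrome c, 17 of complex IV and 17 of ATP synthase. Subunits encoded by mitochondrial DNA were not analysed here, since none of their symbols was found among the single-symbol probe sets.

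The series holds 4 single-colour Affymetrix arrays of heart RNA from untreated C57B6 mice aged 3.6 months. The knock-in group (2 arrays) carried GSK-3α with S21A, the replacement of serine 21 by alanine, which takes away the phosphorylation site used by Akt to inhibit this kinase. The wild-type group (2 arrays) was of the same strain, age and tissue. The comparison asks which transcripts of these complexes differ when GSK-3α cannot be inhibited at that site. Zygosity is not given in the sources used here, and whether each array came from its own animal is not stated, so n counts arrays. In whole heart RNA, fewer cells of a type and less of an RNA per cell cannot be told apart.

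Complex III passes electrons from ubiquinol to cytochrome c, a small soluble carrier, and complex IV passes them on to oxygen. Both pump protons across the inner mitochondrial membrane, and ATP synthase uses the returning protons to make ATP. The heart depends on this pathway for nearly all of its ATP and is densely packed with mitochondria. Several complex IV subunits exist as pairs of isoforms, one typical of heart and skeletal muscle (Cox6a2, Cox7a1, Cox8b in the mouse) and one found in most tissues and often called the liver isoform (Cox6a1, Cox7a2, Cox8a).

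Values are RMA log2 signals, so a difference of 1 is a doubling of the signal, and differences are knock-in minus wild-type. Where a gene has several probe sets, the one with the highest mean over the 4 arrays stands for it. Array medians lay between 6.14 and 6.23, and the brightest probe set of any array reached 15.09. All 12 cardiomyocyte markers of a fixed list were bright, with means of at least 13.08, and their summed linear signal was 242376 to 252960 in knock-in and 238707 to 241339 in wild-type hearts. Hepatocyte markers moved with genotype: 23 of 23 measured had a higher mean in knock-in hearts, with a median difference of 1.80 (0.91 without knock-in replicate 1), and their summed signal was 4363 to 11176 in knock-in against 1353 to 2016 in wild-type hearts. Fibroblast markers also had higher means in knock-in hearts, 7 of 7 with a median of 0.15 and summed signals of 23172 to 25230 in knock-in against 21869 to 21882 in wild-type hearts. None of these values can fall to 0 on this scale, and the defining markers albumin and apolipoprotein A1 lay between 5.65 and 7.33 in wild-type hearts. The part of these marker differences in the results below was not tested. Gsk3a itself read 10.62 and 10.80 in knock-in against 11.16 and 11.08 in wild-type hearts (limma adjusted p = 0.458), which is no firm check of a single amino acid change.

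The promoters of 4 members are shown as examples of windows with and without motif matches: the muscle isoform genes Cox7a1 and Cox8b, and the widely expressed Cox6a1 and Atp5h. Each line gives the 250 bases before the annotated start, on the gene's strand, from RefSeq (build GRCm38.p6). Capitals mark matches to 4 motifs searched on both strands: the NRF1 motif, whose matches are the 10-base capitals in Cox6a1 and Atp5h, CCGGAAG of ETS factors such as GABP, the MEF2 motif and the E-box CAGCTG. No 2 motifs overlapped in these windows.
Cox7a1, chr7:30183921-30184170, plus strand: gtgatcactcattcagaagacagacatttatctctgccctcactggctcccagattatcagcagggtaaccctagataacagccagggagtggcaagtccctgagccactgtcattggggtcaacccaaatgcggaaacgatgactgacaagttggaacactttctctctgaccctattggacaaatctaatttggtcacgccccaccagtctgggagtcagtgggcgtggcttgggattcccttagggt
Cox8b, chr7:140900447-140900696, minus strand: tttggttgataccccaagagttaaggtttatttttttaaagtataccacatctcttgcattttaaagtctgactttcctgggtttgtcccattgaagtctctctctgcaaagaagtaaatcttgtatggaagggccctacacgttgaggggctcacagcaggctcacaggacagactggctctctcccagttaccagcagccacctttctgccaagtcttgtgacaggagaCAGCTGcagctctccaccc
Cox6a1, chr5:115348959-115349208, minus strand: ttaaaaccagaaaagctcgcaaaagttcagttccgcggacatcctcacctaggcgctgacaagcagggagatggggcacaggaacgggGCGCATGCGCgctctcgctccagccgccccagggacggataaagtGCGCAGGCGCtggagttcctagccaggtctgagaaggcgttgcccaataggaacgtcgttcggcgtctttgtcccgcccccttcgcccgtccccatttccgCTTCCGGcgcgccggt
Atp5h, chr11:115419920-115420169, minus strand: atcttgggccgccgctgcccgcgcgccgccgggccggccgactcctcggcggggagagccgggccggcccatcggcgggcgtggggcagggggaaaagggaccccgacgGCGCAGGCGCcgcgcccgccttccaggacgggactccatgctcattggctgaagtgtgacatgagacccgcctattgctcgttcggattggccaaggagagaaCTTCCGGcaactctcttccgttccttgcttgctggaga

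In the muscle isoform windows, Cox8b held an E-box 19 bases before the start and Cox7a1 held none of the 4 motifs. The window of Cox6a1, the widespread partner of Cox6a2, held NRF1 matches starting 162 and 117 bases before the start and an ETS match 16 bases before it. The windows of the other widespread isoforms, Cox7a2 and Cox8a, held none of the 4 motifs. Cox6a2 had no window here, so Cox6a1 could not be compared with its muscle partner. Atp5h, a peripheral stalk subunit gene of ATP synthase, had 1 NRF1 match at 141 bases and 1 ETS match at 38 bases. No member window besides those of Cox6a1 and Atp5h held both NRF1 and ETS matches. Member windows on chromosome 18 were left out, a filter that was not put on the windows of all genes. Windows were used for 33 of the 44 genes, 36 in all: 13.9% of them held the NRF1 motif and 22.2% the ETS motif, against 3.74% and 6.91% of 32851 windows of all genes. The loose MEF2 pattern was in 1 of the members' windows (2.78%) against 3.2% of all, and the E-box in 2 (5.56%) against 13%. A match is a description of letters and not a bound site. The differences of these 4 genes were 0.03 for Cox7a1, 0.03 for Cox8b, −0.13 for Cox6a1 and 0.05 for Atp5h, each given with its arrays below.

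Transcripts of these complexes differed little between knock-in and wild-type hearts. Of 87 member probe sets, 0 were called in limma at an adjusted p under 0.05, where 0.00666% of the array's probe sets did. At an unadjusted p under 0.05 limma put 3 member probe sets higher and 1 lower, which is 3.45% and 1.15% of them, against 5.07% and 5.62% of all probe sets. By gene, 1 was higher (Cox7c) and 0 lower, against 5.45% and 4.76% of all genes. The smallest adjusted p of any member was 0.453. Among the 39 genes with a mean of at least 12, the differences of the brightest probe sets lay between −0.16 and 0.12. The largest of these was 1.12-fold. Their 95% intervals all lay between −0.43 and 0.38, which leaves room for changes of up to 1.34-fold lower or 1.30-fold higher. The 28 additional member probe sets with means of 10 or more differed by −0.17 to 0.36. Their intervals reached from −0.43 to 0.71, or up to 1.35-fold lower and 1.63-fold higher.

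**Figure D1:**
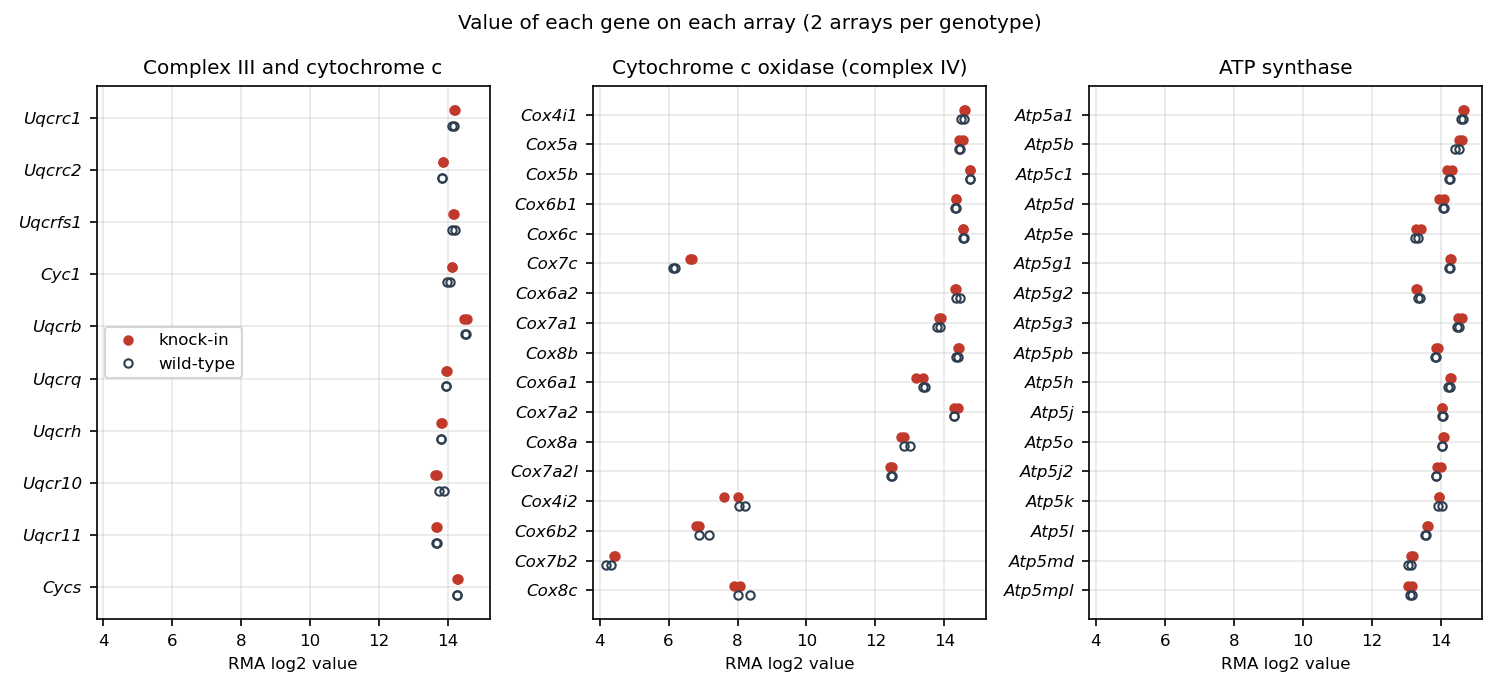
RMA log2 value (horizontal axis) of each of the 44 genes on each array, by complex. Filled points are the 2 knock-in arrays and open points the 2 wild-type arrays. All complex III and ATP synthase genes lie above 13. In complex IV 5 genes lie below 9: Cox7c, Cox4i2, Cox6b2, Cox7b2 and Cox8c.

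In all, 28 genes had a higher mean and 16 a lower one in knock-in hearts, with a median difference of 0.01, against −0.01 over all genes. The median was −0.01 after quantile normalisation and 0.07 with the arrays shifted to a common median, where that of all genes was 0.05. Both knock-in values lay above both wild-type values for 16 of 44 genes (36.4%, against 22.5% of all genes) and below them for 5 (11.4%, against 24.1%). For the other 23 genes the groups overlapped. Most members are bright, and of the 538 other genes with a mean of at least 12, 33.1% lay above and 14.3% below, 344 had a higher mean and the median was 0.03. The 39 members at that level gave 35.9% above and 10.3% below, 26 with a higher mean and a median of 0.02, so these shares are near those of other bright genes. By complex the medians were 0.01 for complex III with cytochrome c, −0.00 for complex IV and 0.04 for ATP synthase, and they moved to −0.01, −0.04 and 0.01 after quantile normalisation and to 0.07, 0.06 and 0.10 with the arrays shifted to a common median.

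For members, the spread between arrays of one genotype lay within the range of that between genotypes, towards its low end. Log2 differences of the 44 genes had an SD of 0.10 between the knock-in arrays and of 0.10 between the wild-type arrays. It was 0.09 between knock-in replicate 2 and wild-type replicate 2, and 0.18 between knock-in replicate 1 and wild-type replicate 1. The SD was 0.13 between knock-in replicate 1 and wild-type replicate 2, and 0.14 between knock-in replicate 2 and wild-type replicate 1. For all genes the SDs in the same order were 0.20 and 0.23 within genotypes, and 0.23, 0.30, 0.24 and 0.30 between them. Brightness moves with this narrow spread: the SD of the genotype difference over all genes was 0.22 at mean values of 7 to 10 and 0.07 at 14 or more, where 22 of the 44 members lie. At mean values of 13 to 14 the median absolute difference was 0.042 for the 15 members and 0.047 for all 181 genes. At 14 or more it was 0.040 for the 22 members and 0.043 for all 73 genes. Members thus differed about as much as all genes of their brightness. The members are counted among all genes here, so this is no comparison with other genes alone. The part of signal saturation in this narrow spread was not tested.

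**Figure D2:**
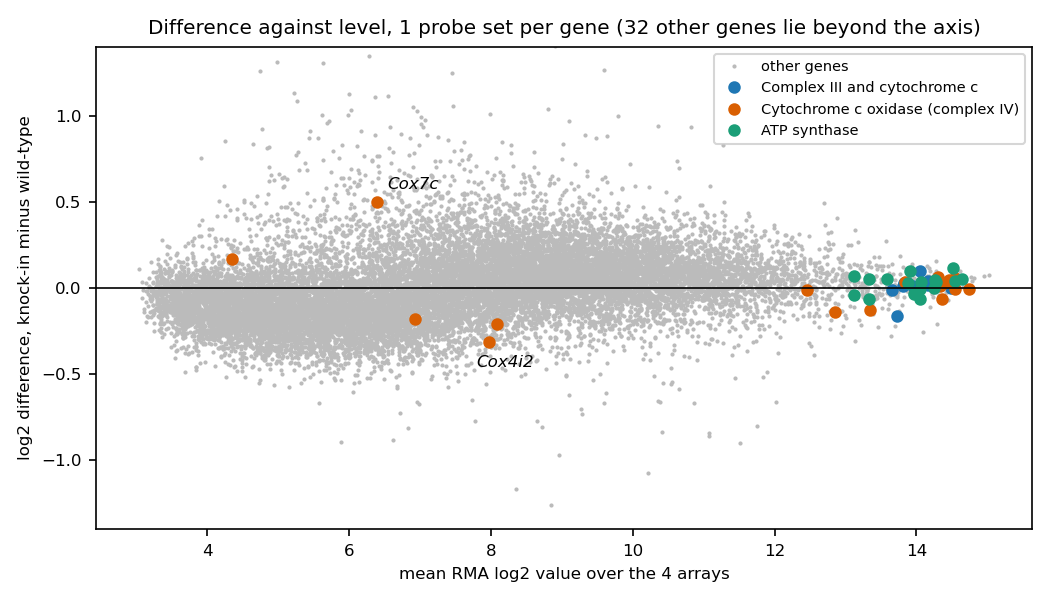
Log2 difference, knock-in minus wild-type (vertical axis), against the mean log2 value (horizontal axis) for 1 probe set per gene, members in colour and other genes in grey. Most members sit at the bright end, where the differences of all genes are narrow, and 32 other genes lie beyond the axis.

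In complex III the catalytic subunits gave small differences, none past the test. Cyc1, the cytochrome c1 that hands electrons to cytochrome c, read 14.10 and 14.10 in knock-in against 13.95 and 14.04 in wild-type hearts. The groups did not overlap, but the difference of 0.10 (SE 0.11) missed the threshold in limma (adjusted p = 0.701). Uqcrfs1, the Rieske iron-sulphur protein, read 14.18 and 14.15 in knock-in against 14.11 and 14.19 in wild-type hearts, so its groups overlapped (difference 0.02, 95% interval −0.24 to 0.27).

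The core proteins form the large matrix-side part of the complex. Uqcrc1 read 14.18 and 14.19 in knock-in against 14.18 and 14.11 in wild-type hearts, a difference of 0.04 (−0.21 to 0.30). Uqcrc2 read 13.85 and 13.84 in knock-in against 13.81 and 13.81 in wild-type hearts, a difference of 0.03 (−0.22 to 0.28). Uqcrc2 was higher on both knock-in arrays by an amount far inside its interval, and its second probe set differed by 0.16.

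Among the small accessory subunits Uqcr10 was the member of complex III with the smallest p. It read 13.62 and 13.68 in knock-in against 13.88 and 13.75 in wild-type hearts, and its other probe sets gave 10.08 and 10.08 in knock-in against 10.31 and 10.19 in wild-type hearts, and 10.003 and 9.937 in knock-in against 10.07 and 10.07 in wild-type hearts. All 3 probe sets were lower on both knock-in arrays, at −0.16, −0.17 and −0.10, and none passed the test (limma adjusted p = 0.575 for the brightest). Uqcrb, which lies near a ubiquinone site, differed by 0.00 (14.54 and 14.45 in knock-in against 14.51 and 14.48 in wild-type hearts). Uqcrq differed by 0.01, Uqcrh, the hinge protein at the cytochrome c1 contact, by 0.01 and Uqcr11 by −0.01. Each of these had an interval within −0.26 and 0.26. Cycs, cytochrome c itself, read 14.30 and 14.25 in knock-in against 14.26 and 14.27 in wild-type hearts by its brightest probe set, a difference of 0.01 (−0.24 to 0.26).

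**Figure D3:**
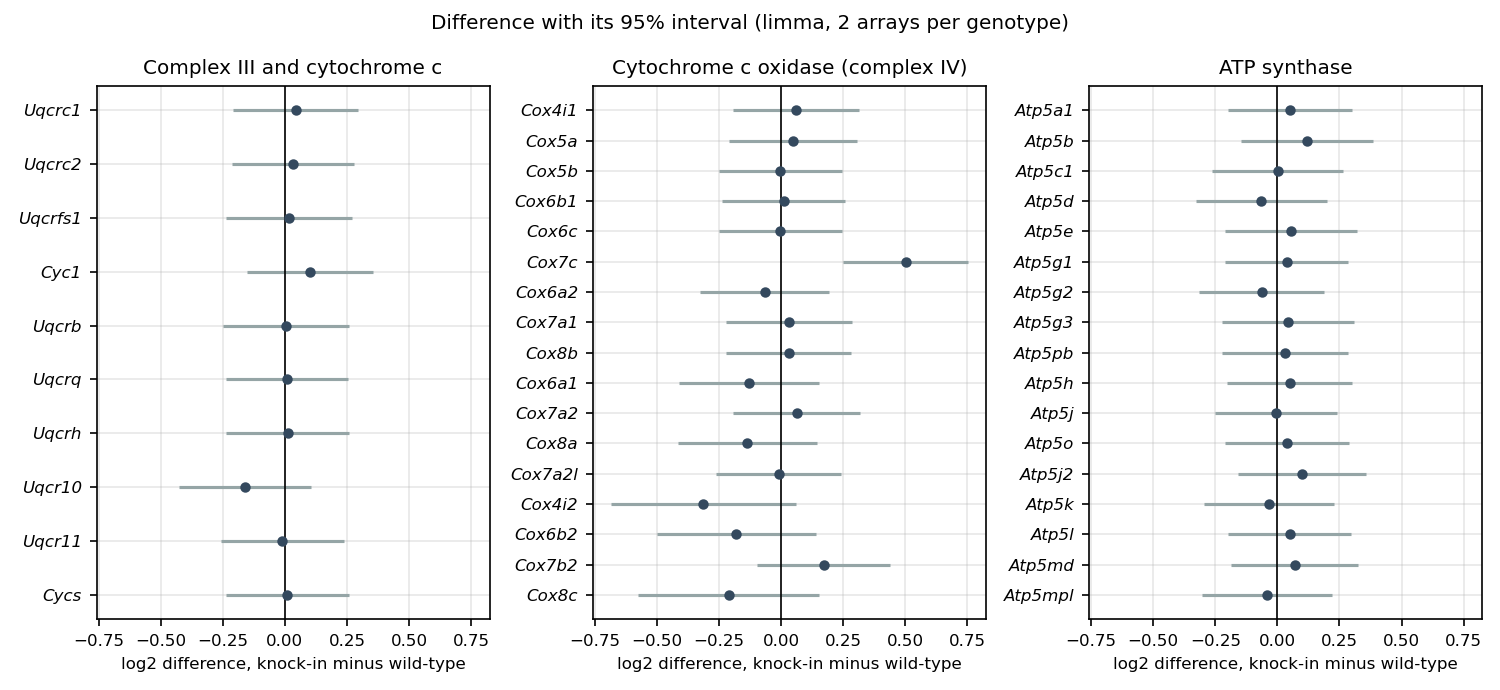
Log2 difference, knock-in minus wild-type (horizontal axis), with its 95% interval from limma, for the 44 genes by complex (2 arrays per genotype). The interval of Cox7c alone lies wholly on one side of 0, and its adjusted p was 0.453.

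In complex IV the differences of the muscle isoforms lay between −0.07 and 0.03. Cox6a2 read 14.34 and 14.32 in knock-in against 14.45 and 14.33 in wild-type hearts, a difference of −0.07 (95% interval −0.33 to 0.19). Cox7a1 read 13.89 and 13.83 in knock-in against 13.80 and 13.86 in wild-type hearts, a difference of 0.03 (−0.22 to 0.29). Cox8b read 14.38 and 14.41 in knock-in against 14.40 and 14.33 in wild-type hearts, a difference of 0.03 (−0.22 to 0.28). The genotypes overlapped for all 3, and the second Cox6a2 probe set had the other sign, at 0.09.

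The widespread isoforms differed by −0.14 to 0.06. The part of the hepatocyte marker difference in these values was not tested. Cox6a1 read 13.18 and 13.38 in knock-in against 13.38 and 13.43 in wild-type hearts, a difference of −0.13 (−0.41 to 0.15). Cox8a read 12.74 and 12.84 in knock-in against 13.01 and 12.84 in wild-type hearts, a difference of −0.14 (−0.42 to 0.14). Cox7a2 read 14.39 and 14.29 in knock-in against 14.27 and 14.28 in wild-type hearts, a difference of 0.06 (−0.19 to 0.32). Cox6a1 and Cox8a thus had lower means and Cox7a2 a higher one, each without overlap of the arrays and none past the test (limma adjusted p between 0.641 and 0.827). For all 3 the nearest arrays of the genotypes nearly touched, as with knock-in replicate 2 and wild-type replicate 2 for Cox8a.

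By their brightest probe sets, the bright complex IV subunits outside these isoform pairs differed by 0.06 at most. Their other bright probe sets differed by −0.04 (Cox5b) to 0.36 (Cox6c). Cox4i1, the common form of the subunit that binds ATP as an allosteric inhibitor, read 14.57 and 14.59 in knock-in against 14.48 and 14.56 in wild-type hearts, a difference of 0.06. Cox5a read 14.54 and 14.44 in knock-in against 14.42 and 14.46 in wild-type hearts (0.05), and Cox5b, which binds zinc, read 14.75 and 14.74 in knock-in against 14.75 and 14.75 in wild-type hearts (−0.00). The differences of Cox6b1, which faces the intermembrane space, and of Cox6c were 0.01 and −0.00. Cox7a2l, a relative of Cox7a2, differed by −0.01 (12.43 and 12.48 in knock-in against 12.49 and 12.44 in wild-type hearts).

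Cox7c had the smallest unadjusted p of the 44 genes. It read 6.67 and 6.63 in knock-in against 6.18 and 6.12 in wild-type hearts, a difference of 0.50 (SE 0.10, 95% interval 0.25 to 0.75, limma adjusted p = 0.453). The groups stood apart by more than either genotype's spread, but the adjusted p missed the threshold. Its values lie near the array medians, so no fold is given, and its other probe set, dimmer still at 4.12 and 4.01 in knock-in against 4.12 and 3.98 in wild-type hearts, differed by 0.02. The brighter probe set is of the type that can bind more than 1 transcript. In contrast, the brightest probe sets of Cox4i1, Cox5a, Cox5b, Cox6b1 and Cox6c had means of 14.33 to 14.75. How well the Cox7c probe sets measure their transcript was not tested, so their low values are no measure of its level in heart.

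The isoforms known from restricted tissues had low means, from 4.35 for Cox7b2 to 8.09 for Cox8c. Cox4i2, the oxygen-regulated form typical of lung and small vessels, read 7.619 and 8.002 in knock-in against 8.212 and 8.035 in wild-type hearts. Its difference was −0.31 (SE 0.16, limma adjusted p = 0.489), and knock-in replicate 2 lay just below wild-type replicate 2: without knock-in replicate 1 the difference was −0.12. The testis isoforms Cox6b2 and Cox8c differed by −0.18 and −0.21 with overlapping arrays, and Cox7b2 by 0.17. Of the cells of vessels, only endothelial cells had a marker list here. Among these markers 5 of 6 had higher means in knock-in hearts, with summed signals of 6808 to 7821 in knock-in and 6358 to 6762 in wild-type hearts. The part of any vessel cell type in the Cox4i2 values was not tested.

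ATP synthase subunits had the highest median of the 3 groups, at 0.04, and no member passed the test. Atp5b, the catalytic beta subunit, read 14.63 and 14.54 in knock-in against 14.40 and 14.52 in wild-type hearts, a difference of 0.12 (SE 0.11, limma adjusted p = 0.674). Atp5a1, the alpha subunit of the same head, read 14.66 and 14.69 in knock-in against 14.64 and 14.60 in wild-type hearts, a difference of 0.05 (95% interval −0.20 to 0.30). Both stood higher on both knock-in arrays, by gaps within their intervals. In the central stalk that turns inside the head, Atp5c1 differed by 0.00, Atp5d by −0.06 and Atp5e by 0.06, with overlapping arrays for each.

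The rotating ring in the membrane is built of 1 mature protein made from 3 genes. Atp5g1 read 14.28 and 14.29 in knock-in against 14.24 and 14.26 in wild-type hearts, a difference of 0.04 (−0.21 to 0.28). Atp5g2 read 13.28 and 13.32 in knock-in against 13.39 and 13.33 in wild-type hearts, a difference of −0.06 (−0.32 to 0.19). Atp5g3 read 14.63 and 14.49 in knock-in against 14.54 and 14.49 in wild-type hearts, a difference of 0.04 (−0.22 to 0.31). The first was higher and the second lower on both knock-in arrays, and the third overlapped.

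In the peripheral stalk, which keeps the head from turning with the ring, the brightest probe sets of Atp5pb, Atp5h, Atp5o and Atp5j differed by 0.03, 0.05, 0.04 and −0.01. Atp5h read 14.28 and 14.30 in knock-in against 14.21 and 14.28 in wild-type hearts. Of the small membrane subunits, Atp5j2 read 14.01 and 13.91 in knock-in against 13.86 and 13.85 in wild-type hearts, a difference of 0.10, and a second bright probe set gave 0.12. Atp5l, Atp5md, Atp5k and Atp5mpl differed by 0.05, 0.07, −0.03 and −0.04. All 9 intervals in the stalk and membrane parts lay between −0.30 and 0.36.

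Of the 44 genes, 27 had more than 1 probe set, up to 6 for Cox5b, and 14 of the 27 had probe sets of opposite sign. The 28 additional probe sets that averaged 10 or more, from 21 genes, had a median difference of 0.07, against 0.01 for the brightest probe sets of the same genes. Of these 28, 20 differed more in the knock-in direction than the brightest probe set of their gene. Their highest value was on knock-in replicate 1 for 12, knock-in replicate 2 for 7, wild-type replicate 1 for 8 and wild-type replicate 2 for 1. Their lowest was on knock-in replicate 1 for 6, knock-in replicate 2 for 4, wild-type replicate 1 for 13 and wild-type replicate 2 for 5.

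Among these 28 the gap to the brightest probe set was widest for Cox6c, whose second probe set read 12.54 and 12.28 in knock-in against 11.92 and 12.18 in wild-type hearts, a difference of 0.36 (limma unadjusted p = 0.044, adjusted p = 0.461), against −0.00 by the brightest. Second probe sets of Atp5o (0.31), Uqcrb (0.26), Cycs (0.27) and Atp5pb (0.22) also lay above the brightest ones, chosen here after their values were seen. In the Cycs probe set the arrays read 13.79 and 13.44 in knock-in against 13.21 and 13.48 in wild-type hearts, so wild-type replicate 2 lay above knock-in replicate 2. Among probe sets with means below 10, 1 of Atp5c1 (6.96 and 7.03 in knock-in against 6.69 and 6.63 in wild-type hearts) differed by 0.34. In the same range 1 of Atp5j2 (7.83 and 7.76 in knock-in against 8.18 and 8.05 in wild-type hearts) differed by −0.32. Their limma unadjusted p were 0.017 and 0.026, and the limma adjusted p was 0.458 for each. The 3′ minus 5′ signal of the Gapdh control, a sign of RNA quality, was 0.54 and 0.76 in knock-in against 0.62 and 0.61 in wild-type hearts, lowest on knock-in replicate 1, and its part in these gaps was not tested.

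**Figure D4:**
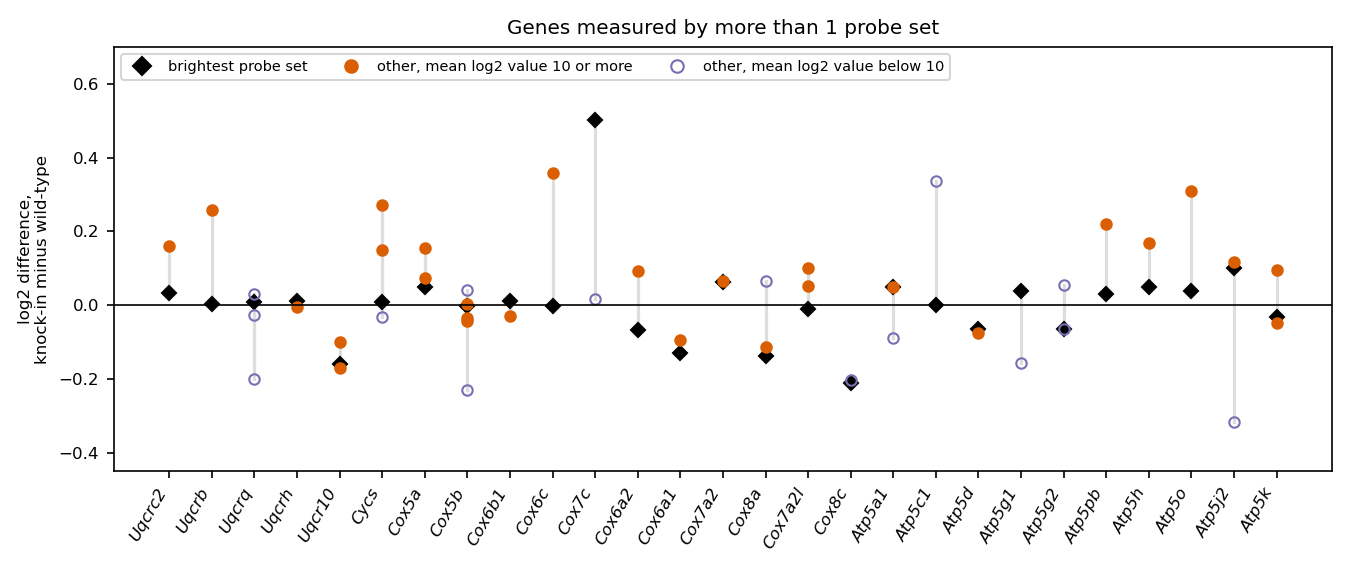
Log2 difference, knock-in minus wild-type (vertical axis), of every probe set of the 27 genes with more than 1. Black diamonds are the brightest probe set of each gene, filled circles others with a mean of 10 or more and open circles dimmer ones. Filled circles of Cox6c, Atp5o, Cycs and Uqcrb stand well above their diamonds.

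Assembly factors of complex IV had more positive differences than its subunits. Of 24 measured genes of a fixed list of 29, 19 had higher means in knock-in hearts and 5 lower, with a median of 0.13 against −0.00 for the 17 subunit genes and −0.01 for all genes. None was called, while limma's unadjusted p was under 0.05 for 2 with higher means (8.33%, against 5.45% of all genes) and 0 with lower means (against 4.76%). Higd1a, a hypoxia-inducible regulator of the enzyme, read 12.98 and 12.94 in knock-in against 12.56 and 12.71 in wild-type hearts, a difference of 0.33 (95% interval 0.06 to 0.59, adjusted p = 0.458). Cmc1, which acts on early Cox1 assembly, read 9.65 and 9.58 in knock-in against 9.18 and 9.40 in wild-type hearts (0.33, 0.04 to 0.62), and the copper chaperone Sco1 differed by 0.21. Lower means were measured for Cox19 (−0.16), Coa4 (−0.12) and Pet100 (−0.08). The list's median was 0.05 after quantile normalisation, 0.07 without knock-in replicate 2, 0.07 without wild-type replicate 2 and up to 0.12 with either other array left out, and the difference between assembly factors and subunits was not tested.

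**Figure D5:**
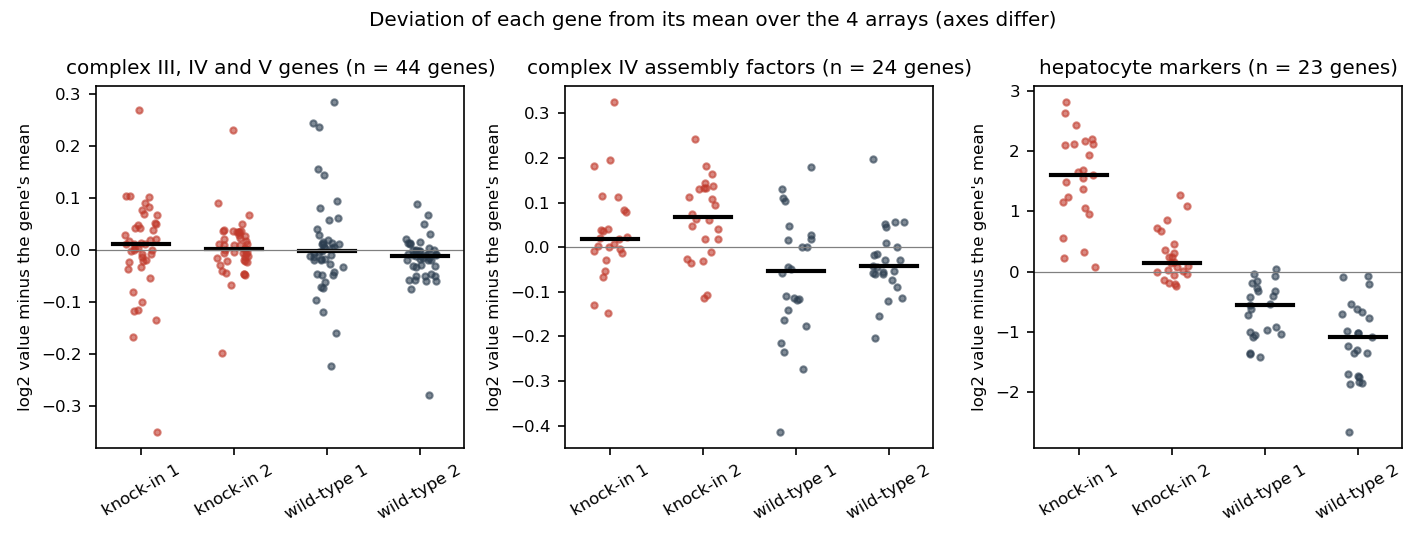
Log2 value minus the gene's own mean over the 4 arrays (vertical axis, scaled per panel) on each array, for the 44 genes of the 3 complexes, 24 complex IV assembly factors and 23 hepatocyte markers. Bars are medians: they lie between −0.01 and 0.01 for the first group, and at 1.60 and 0.14 on the knock-in arrays against −0.56 and −1.09 on the wild-type arrays for hepatocyte markers.

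No gene of the other pathway lists passed the test either. Of 6 complex III assembly factors 2 had higher and 4 lower means (median −0.00), with Uqcc1 at 0.16, Ttc19 at 0.16 and Lyrm7, which delivers the Rieske protein, at −0.39 from dim values of 5.17 and 5.07 in knock-in against 5.55 and 5.46 in wild-type hearts (limma unadjusted p = 0.011, adjusted p = 0.458). The 4 measured genes of ATP synthase assembly and inhibition had higher means (median 0.12), with Atpaf1 at 0.17, the inhibitor Atpif1 at 0.14 and Tmem70 at 0.10. Hccs, which attaches haem to cytochrome c, differed by 0.14, and the testis cytochrome c gene Cyct, which is dim, by 0.25.

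The complex II genes Sdha, Sdhb, Sdhc and Sdhd differed by −0.00, −0.02, 0.05 and 0.06. Among carriers and kinases that move ATP and phosphate, 9 of 10 had higher means (median 0.06), with the mitochondrial creatine kinase gene Ckmt2 at 0.13, Vdac3 at 0.09, Ckm at 0.08 and the dim Ckmt1 at −0.15. Of 12 regulators of respiratory genes 7 had higher and 5 lower means (median 0.08, but −0.00 after quantile normalisation and −0.03 without wild-type replicate 1). Tfam, which packages mitochondrial DNA, differed by 0.27, and Gabpb1 and Gabpa, subunits of the ETS factor GABP, by 0.23 and 0.30. The coactivators Ppargc1a and Ppargc1b differed by −0.21 and −0.25 and Yy1 by −0.17. Gabpa read 9.80 and 9.81 in knock-in against 9.14 and 9.87 in wild-type hearts, and Tfam read 9.41 and 9.42 in knock-in against 8.996 and 9.292 in wild-type hearts. Wild-type replicate 1 was the lowest array for both, and wild-type replicate 2 the highest for Gabpa.

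On chromosome 7, which carries Gsk3a, 6 of the 44 genes lie. Cox7a1 and Cox6b1 are the nearest, 118 and 143 measured genes away in the gene order of GRCm38.p6, and differed by 0.03 and 0.01. Cox6b2 (−0.18), Uqcrc2 (0.03), Cox6a2 (−0.07) and Cox8b (0.03) lie 226 to 1051 measured genes away.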

How the data were processed

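Heart RNA was measured on 4 Affymetrix arrays. The deposited log2 values are RMA summaries. The submitters' processing notes name Expression Console from Affymetrix. RMA brings arrays to a common distribution and so takes out any shift that most genes share. The sample titles do not say which arrays were normalised together. The program's version is not given in the sources used here.

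Of 45101 probe sets, 64 controls were left out and 45037 tested by genotype in R 4.3.3 (limma 3.58.1, functions lmFit and eBayes), and p-values were adjusted over all of them after Benjamini and Hochberg. The fit had 2 residual and 4.54 prior degrees of freedom, and the median standard error was 0.12. Since the labels name no separate animals, p-values measure the spread between these arrays, which may be technical. Probe sets were named from the array's annotation: 34945 had 1 symbol, 932 several (not used) and 9160 none. On simulated data with 200 changed genes of 45037 probe sets, the fit called 59.6% of changes of 1 and 0.2% of changes of 0.3. An exact permutation test of 2 against 2 arrays cannot go below p = 0.333 and was not used.

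The members and lists were chosen with earlier results of these data known. Text names isoform families, core subunits, the 3 genes per complex and direction with the smallest p, and up to 3 per direction in each list. Tables and plots used Python 3.11.15, pandas 2.3.3, numpy 2.4.6 and matplotlib 3.10.9. Other settings changed the scaling, the prior variance and the filter on dim or cross-hybridising probe sets, averaged probe sets, blocked on replicate number or left out 1 array. The filter on dim probe sets left out those with a mean below 7.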

Additional observations from a re-analysis of the deposited data

How the results depend on the processing

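No member probe set passed the test in any of the 10 settings run on probe sets, and no listed pathway gene did in any of 11. The count of member genes at an unadjusted p under 0.05, 1 in the fit reported, was 2 with a trended prior variance (Cox7c and Uqcr10), 2 after quantile normalisation (Cox7c and Cox4i2), 0 without dim probe sets, where Cox7c is not tested, 1 without cross-hybridising probe sets (Atp5c1, not Cox7c, whose remaining probe set gave 0.017) and 1 to 3 with 1 array left out. Without wild-type replicate 2 the 3 were Cox7c, Cox8c and Cox6b2, and without knock-in replicate 2 the 2 were Cox7c and Cox4i2. Cox7c stayed between 0.47 and 0.53 with 1 array left out, fits in which a lone array is assumed to vary like the others.

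The median over members was 0.074 with the arrays shifted to a common median, 0.032 with each gene's probe sets averaged, 0.023 without cross-hybridising probe sets, −0.0082 after quantile normalisation and 0.0080 to 0.029 with 1 array left out. The cause was not tested. In the fit with a replicate block, 0 member probe sets were called, 1 gene (Cox7c, 0.50) had an unadjusted p under 0.05 and no call changed. The deviations of same-numbered arrays correlated at 0.0848. With 2 arrays per genotype the deviations of one mirror those of the other, so this value cannot show whether arrays were paired.

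Of 473 single-gene values in other settings 50 changed sign, over 23 genes whose reported difference was at most 0.10. With the arrays shifted to a common median these were Cox5b at 0.057, Cox6c at 0.057, Atp5j at 0.055, Atp5k at 0.028, Uqcr11 at 0.050, Atp5mpl at 0.019 and Cox7a2l at 0.050. After quantile normalisation they were Uqcrb at −0.035, Cox6b1 at −0.027, Cycs at −0.00056, Atp5c1 at −0.023, Uqcrfs1 at −0.023, Uqcrq at −0.023, Atp5pb at −0.0057 and Uqcrh at −0.016. With probe sets averaged they were Cox6c at 0.18, Cox6a2 at 0.014, Cox6b1 at −0.0085, Atp5g1 at −0.060, Atp5k at 0.0051, Uqcrq at −0.047, Atp5j2 at −0.033 and Cox7a2l at 0.048. Without cross-hybridising probe sets, where another probe set may stand for the gene, they were Cox5b at 0.040, Cox6b1 at −0.028, Atp5g1 at −0.16, Uqcrq at −0.20 and Uqcrh at −0.0044. With 1 array left out the ranges that crossed 0 were Cox5b −0.0094 to 0.0033, Cox6c −0.014 to 0.0083, Atp5g3 −0.027 to 0.11, Uqcrb −0.039 to 0.044, Cox5a −0.0035 to 0.10, Cox8b −0.0043 to 0.064, Cox6b1 −0.00076 to 0.023, Cycs −0.014 to 0.034, Atp5c1 −0.067 to 0.069, Uqcrfs1 −0.023 to 0.054, Atp5d −0.13 to 0.0042, Atp5j −0.016 to 0.0049, Atp5k −0.098 to 0.034, Atp5pb −0.0068 to 0.068, Uqcr11 −0.027 to 0.0069, Atp5e −0.0088 to 0.12, Atp5mpl −0.10 to 0.017, Cox7a2l −0.037 to 0.017. The number of arrays limits precision, and dim probe sets such as those of Cox7c hold little signal over background.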
